A study of Mus musculus with 14 samples.

Results

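The muscle myosin light chains are 6 genes of the 24016 in the table, Myl1, Myl2, Myl3, Myl4, Myl6b and Mylpf, taken by their symbols from a family picked with earlier results of these data known. 5 of them had a mean of at least 1 over the 8 libraries, as did 14312 genes in all, and Myl3 was at 0 in every library. The RNA came from C2C12, a line of mouse myoblasts that form myotubes in low serum, which the authors purchased and did not authenticate. Cells were transfected with a pool of siRNAs against Klf5 (siKlf5) or with control siRNA (siCtrl). The sequence of the control siRNA was not given in the sources used here. Cells were taken on days 0, 1, 2 and 3 of differentiation, which was induced by medium with 2% horse serum. The paper treats day 0 as the myoblast stage, so changes from day 0 also span the change of medium. No allele was changed in either group. Poly(A) RNA was measured in 1 library per siRNA and day, 8 in all, so a value of a single library has no replicate error. The question addressed is whether the light chains were induced to the same level when Klf5 was reduced.

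Muscle myosin is a pair of heavy chains whose necks each carry an essential and a regulatory light chain. The light chains stiffen the lever arm and tune the speed and calcium response of the motor. Different muscles and stages use different genes: Myl1 and Mylpf are the essential and regulatory chains of fast skeletal muscle, Myl4 is the essential chain of embryonic muscle and of the atrium, Myl3 and Myl2 are the essential and regulatory chains of slow muscle and of the ventricle, and Myl6b is an essential chain of slow skeletal muscle. Myl6, Myl12a, Myl12b and Myl9 provide these chains to nonmuscle and smooth muscle myosin.

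The members lie on different chromosomes of mm9, the build of the table. Myl1 (NM_001113387) was counted on chr1:66970870-66981940, minus strand, over 808 exon bases, Myl2 (NM_010861) on chr5:122550989-122556863, plus strand, over 624, and Myl3 (NM_010859) on chr9:110666185-110672298, plus strand, over 889. Myl4 (NM_010858) was counted on chr11:104411977-104448533, plus strand, over 872 exon bases, Myl6b (NM_172259) on chr10:127931213-127935741, minus strand, over 1017, and Mylpf (NM_016754) on chr7:134355122-134357801, plus strand, over 746. No other transcript of the table overlapped a member. The nearest neighbours were Cdc27 at 43 bp from Myl4, Sept1 at 155 bp from Mylpf and Myl6 at 332 bp from Myl6b.

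The members are close relatives, so their coding sequences were compared on mm9 with the GENCODE transcript nearest to each counted one. Myl6b and Myl6, the neighbouring pair on chromosome 10, were the most alike of the 21 pairs of the members and Myl6, with 78.7% of aligned coding bases identical. Myl3 and Myl4 shared 78.1%, and Myl1 and Myl4 shared 76.2%. The regulatory chains Myl2 and Mylpf shared 70.1%. The longest exact stretch between transcripts was 46 bases, in Myl6 and Myl6b, and was 29 bases for Myl3 and Myl4. Read length was not given in the sources used here, so reads shared within such stretches could not be counted.

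Both Myl1 and Myl4 have more than 1 annotated start. The counted Myl1 transcript is the short form, which starts 9777 bp inside the long form Myl1-001. It shares 4 of its 7 exons with the long form at identical ends, so reads of the long form in these exons were counted under Myl1 too. The counted Myl4 transcript has 9 exons and starts 26322 bp before another annotated transcript, Myl4-003, whose first base is at chr11:104438299. Myl4-003 shares 7 exons with the counted transcript, or 760 bases, so its reads were counted under Myl4 too. The ChIP-qPCR product of the study's Myl4 primers, of 81 bp, lay just before this internal start, at chr11:104438200-104438280, beginning 99 bases before the first base of Myl4-003, and the qPCR product of 102 bp lay at chr11:104438775-104438876, in exon 3 of the counted transcript.

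The 200 bases before the start are shown for the 4 most abundant members, since these rose together during differentiation. For Myl4 the internal start is used, and for Myl1 the start of the short form alone. They were read from the mm9 genome, 5′ to 3′ on the strand of the gene. Capitals mark CANNTG (the E-box of the MyoD family), CACCC on either strand (a core of Krüppel-like factor motifs) and the MEF2 site. The windows are chr11:104438099-104438298 for Myl4, chr7:134354922-134355121 for Mylpf, chr1:66981941-66982140 for Myl1 and chr10:127935742-127935941 for Myl6b.
Myl4 (internal start): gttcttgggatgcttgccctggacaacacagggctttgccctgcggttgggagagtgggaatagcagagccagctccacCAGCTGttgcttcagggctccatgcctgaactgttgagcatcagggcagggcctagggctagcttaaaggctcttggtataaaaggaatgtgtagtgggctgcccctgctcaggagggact
Mylpf: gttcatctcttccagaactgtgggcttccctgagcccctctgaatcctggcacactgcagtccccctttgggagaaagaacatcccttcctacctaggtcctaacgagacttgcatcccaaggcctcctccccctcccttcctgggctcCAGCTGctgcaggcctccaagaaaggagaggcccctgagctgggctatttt
Myl1: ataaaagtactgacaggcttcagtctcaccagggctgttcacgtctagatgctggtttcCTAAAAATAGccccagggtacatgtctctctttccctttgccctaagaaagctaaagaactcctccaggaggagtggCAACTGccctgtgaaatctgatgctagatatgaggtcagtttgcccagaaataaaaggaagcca
Myl6b: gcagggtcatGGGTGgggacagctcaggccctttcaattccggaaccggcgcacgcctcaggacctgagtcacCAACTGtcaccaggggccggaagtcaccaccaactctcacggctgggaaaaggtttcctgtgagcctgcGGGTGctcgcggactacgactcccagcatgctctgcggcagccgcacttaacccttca

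CANNTG was found 1 time in each of these 4 windows, and 54.7% of the 23950 windows of that length before the starts of the table held it. The narrower CAGCTG, which is contained in CANNTG, was in the windows of Mylpf and of the internal Myl4 start, against 10.3% of all. CACCC was in the Myl6b window 2 times and in none of the other 3, against 46.3% of all windows. The MEF2 site was in the Myl1 window alone among the 4, against 0.388%. TATAAA and CATTCC, searched on both strands, were in the Myl4 internal window alone among the 4, against 9.70% and 9.10%. GGGCGG on either strand was in none, against 39.8%, and the CArG box was in none, against 1.06%. The window before the counted, distant Myl4 start held none of these motifs. Such matches describe the letters of the windows only.

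Depth, as recovered from the values, was between 7850497 reads (siCtrl, day 1) and 20301506 reads (siCtrl, day 2), and on day 2 the siCtrl library was 1.72 times as deep as the siKlf5 library. For days 0 to 3 in turn, Klf5 stood at 15.7%, 41.9%, 31.3% and 22.7% of its siCtrl value. All 10 skeletal muscle markers were measured. Of the 8 cardiac markers 5 had a mean of at least 1, with Tnnt2 at 408.4 to 3635 and Actc1 at 101.2 to 2830, and Nppa, Nkx2-5 and Myl7 did not. Of the 6 smooth muscle markers Acta2, Tagln and Smtn did, with Acta2 at 394.8 to 1552, and Cnn1, Myh11 and Myocd did not. Of the 6 adipocyte markers 1 had a mean of at least 1, and of the 6 blood cell markers 2 did. The authors kept at most 3 reads per position, so densely covered transcripts were looked at on their own. Those averaging 4 or more reads per base, 61 with Mylpf among them, had median log2 ratios of siKlf5 over siCtrl of 0.07, -0.09, 0.42 and 0.07 for the days in turn. Below that density the medians were between -0.03 and 0.04. These values are set beside the results for Myl1 and Mylpf, the members with the highest mean reads per base, and their part in those results was not tested. In the deep siCtrl library of day 2, Myl4 had 5.66 reads per base, Myl1 5.64 and Mylpf 7.74.

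Light chain expression rose steeply during differentiation in both groups. Mylpf, the fast regulatory chain, had FPKM values of 384.3, 2469, 2304 and 3272 on days 0 to 3 in siCtrl cells and 272.8, 2359, 2860 and 3110 in siKlf5 cells. Most of its increase lay between days 0 and 1, and its values in the groups overlapped. Myl1, the fast essential chain, had values of 286.9, 1220, 1680 and 2662 in siCtrl cells and 315.6, 1665, 2419 and 2910 in siKlf5 cells. Myl4, the embryonic essential chain, started lowest of the 4 abundant members, with 59.5, 616.2, 1685 and 2390 in siCtrl cells and 28.2, 297.5, 929.1 and 1087 in siKlf5 cells. The siKlf5 value of Myl4 was below the siCtrl value of the same day on each of the 4 days. Myl6b, the slow skeletal essential chain, had values of 109.5, 532.2, 845.3 and 968.4 in siCtrl cells and 136.4, 429.8, 680.3 and 625.3 in siKlf5 cells. In siKlf5 cells Myl6b was no higher on day 3 than on day 2.

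**Figure D1:**
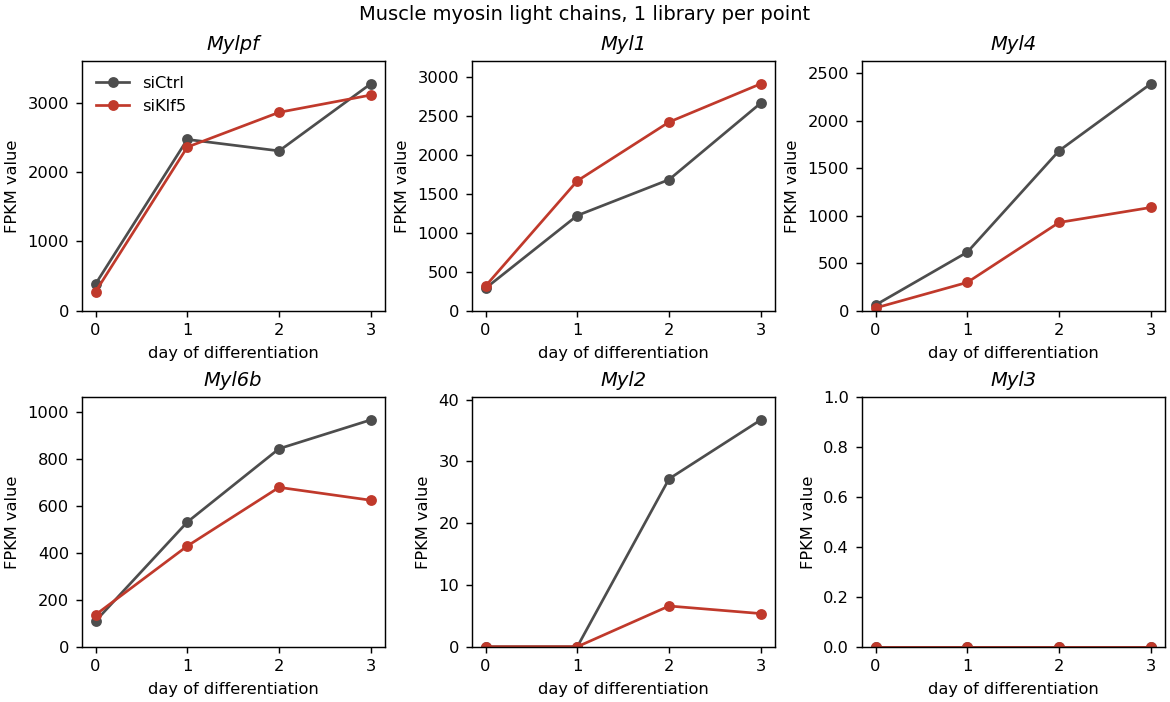
FPKM values (y axis, linear, own scale per gene) of the 6 muscle light chains on days 0 to 3 (x axis) in siCtrl (grey) and siKlf5 (red) cells, 1 library per point. The lines of Mylpf cross, the siKlf5 line of Myl1 lies above and that of Myl4 below the siCtrl line on every day, and Myl2 appears on day 2 while Myl3 stays at 0.

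Myl2, the slow and ventricular regulatory chain, was at 0 in both groups on days 0 and 1. It reached 27.2 on day 2 and 36.7 on day 3 in siCtrl cells, from 57 and 47 reads, and 6.60 and 5.37 in siKlf5 cells, from 8 and 6 reads. Transcripts with 6 reads far outnumbered those with 5, so 3 sets of 6, or 18 reads, were taken as the limit that a count of 0 allows. For Myl2 this limit was between 8.59 and 22.5 FPKM, depending on the library, and both siKlf5 values lay under it. Myl3, the slow and ventricular essential chain, had 0 reads in all 8 libraries, which allows values of up to 6.03 to 15.8. Counts of 0 bear on detection at this depth only, and intervals and limits cover counting error alone.

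Across both siRNAs, Myl4 had the smallest p of all 14312 transcripts between days 0 and 3. It rose by a log2 difference of 5.26 (SE 0.11, 95% interval 5.02 to 5.51, adjusted p = 1.82e-07, limma). Mylpf rose by 3.30 (SE 0.17, adjusted p = 6.01e-06, limma), Myl1 by 3.21 (SE 0.13, adjusted p = 1.98e-06, limma) and Myl6b by 2.66 (SE 0.19, adjusted p = 3.55e-05, limma). Myl2 rose by 3.95 (SE 0.83, adjusted p = 0.00774, limma), a size that depends on the pseudocount, since its day 0 values were 0. The 5 members measured were thus all called higher on day 3, where 13% of all transcripts were called higher. On day 2 the 5 were called as well, with 11.7% of all transcripts, and on day 1 all but Myl2 were, with 6.76%. In these fits the 2 libraries of a day stand in for replicates although they received different siRNAs.

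Within each siRNA, all 5 members were more than 2-fold higher on day 3 than on day 0, as were 15.5% of all transcripts in siCtrl cells and 14.9% in siKlf5 cells, but for Myl2 in siKlf5 cells this rested on 6 reads. The fold of Myl4 was 40.2 in siCtrl and 38.5 in siKlf5 cells, and that of Myl1 was 9.28 and 9.22. Mylpf increased 8.52-fold in siCtrl and 11.4-fold in siKlf5 cells, and Myl6b 8.85-fold and 4.59-fold. Klf5 knockdown cells thus had a fold induction of Myl4 close to that of siCtrl cells, from a lower starting value and to a lower final value. The counting interval of the day 0 difference included 0 (log2 -2.65 to 0.20). On day 3 Myl4 had 4.90 reads per base in siCtrl and 1.95 in siKlf5 cells. Whether the limit of 3 reads per position affected these folds was not tested. The log2 intervals of the change of Myl4 were wide, 4.64 to 6.12 in siCtrl and 4.27 to 6.66 in siKlf5 cells, since only 102 and 44 reads were counted on day 0.

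Between the siRNAs, Myl4 was the member that differed throughout. It had 47.5%, 48.3%, 55.2% and 45.5% of the siCtrl value on days 0, 1, 2 and 3, which are log2 ratios of -1.07 (95% interval -2.65 to 0.20), -1.05 (-1.53 to -0.58), -0.86 (-1.07 to -0.66) and -1.14 (-1.34 to -0.94). The interval included 0 on day 0 alone. Myl4 was 1 of 92 transcripts, or 0.643% of those measured, that were more than 1.5-fold lower on all 4 days. Averaged over the 4 days, the log2 difference of Myl4 between siKlf5 and siCtrl cells was -1.02 (SE 0.08, 95% interval -1.20 to -0.85, adjusted p = 0.00412, limma). Myl4 was lower on 4 of 4 days, with the second smallest p of all transcripts. limma called 9 transcripts lower (0.0629%) and 1 higher (0.00699%). The size hardly moved when the fit was changed, but the call was lost when any day was left out (adjusted p between 0.178 and 0.634, limma), without the day block (adjusted p = 1.00, limma), without the trend of the spread with expression (adjusted p = 0.303, limma) and without the filter on low values (adjusted p = 0.479, limma).

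No other member was past 1.5-fold on all 4 days. Myl1 was higher in siKlf5 cells on each day, with log2 ratios of 0.14, 0.45, 0.53 and 0.13, none past 1.5-fold. Its difference over the days was 0.31 (SE 0.09, adjusted p = 0.342, limma). On day 2, the largest of these, 55 of the 61 densely covered transcripts had a ratio below that of Myl1 and all 61 were above 0. With the libraries scaled on the dense transcripts, a scaling added after seeing the data, the day 2 ratio of Myl1 was 0.08 and that of Mylpf was -0.13. Myl4 was then at -1.30 and the median of all transcripts at -0.47. Myl4 averaged 1.96 reads per base, below the density of the transcripts used for the scaling. On day 1 the same scaling put Myl1 at 0.55 and Mylpf at 0.04. As deposited, Mylpf had log2 ratios of -0.49, -0.07, 0.31 and -0.07 and a difference over the days of -0.08 (SE 0.12, adjusted p = 0.876, limma), which was 0.06 without day 0 and -0.21 without day 2.

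**Figure D2:**
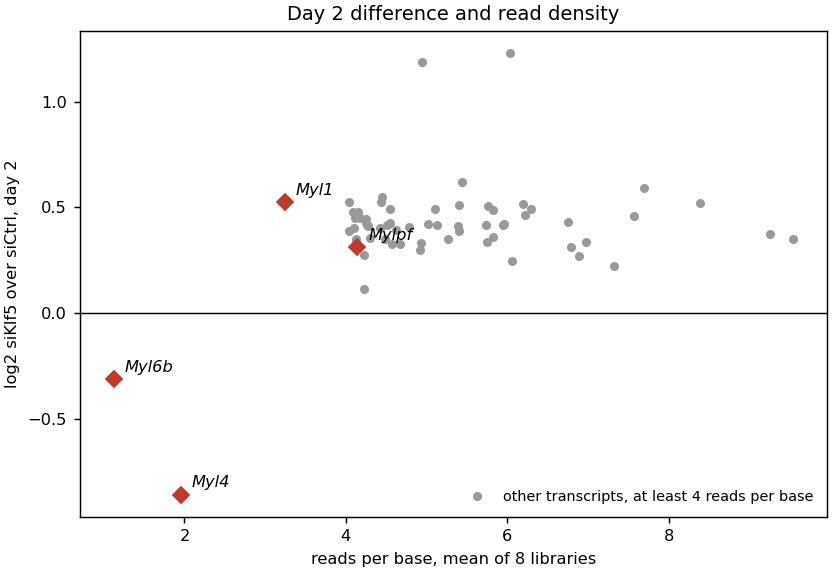
Log2 siKlf5 over siCtrl on day 2 (y axis) against reads per base, mean of 8 libraries (x axis), for transcripts averaging 4 or more reads per base (grey points) and for 4 members (red diamonds). All 61 dense transcripts lie above 0, with Myl1 and Mylpf among their range, whereas Myl6b and Myl4 lie below 0 at lower density.

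For Myl6b the log2 ratios of days 0 to 3 were 0.32 (95% interval -0.36 to 1.01), -0.31 (-0.72 to 0.09), -0.31 (-0.55 to -0.08) and -0.63 (-0.89 to -0.37). It was thus past 1.5-fold lower on day 3 alone. With the scaling on dense transcripts it was past the cutoff on day 2 as well (-0.76). Under that scaling 5344 of all 14312 transcripts were too, and the median of all was -0.47. Myl6b averaged 1.12 reads per base, below the density of the transcripts used for the scaling. Its difference over the days was -0.23 (SE 0.14, adjusted p = 0.613, limma), and between -0.42 and -0.10 with a day left out. Myl2 had log2 ratios of -2.03 on day 2 and -2.75 on day 3, past the cutoff, but both intervals included 0 (-7.97 to 0.28 and -8.28 to 0.09). Its difference over the days was -1.11 (SE 0.59, adjusted p = 0.571, limma).

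Of the 5 members measured, 1 was more than 1.5-fold lower on day 0 (11.1% of all transcripts were), 1 on day 1 (11% of all), 2 on day 2 (13% of all) and 3 on day 3 (12.5% of all). These were Myl4 on every day, Myl2 on days 2 and 3 and Myl6b on day 3. No member was more than 1.5-fold higher on any day, where 9.22%, 16.4%, 7.69% and 10.7% of all transcripts were on days 0 to 3. The median log2 ratio of the 5 was 0.00, -0.07, -0.31 and -0.63 on the 4 days, against 0.00, 0.03, -0.03 and 0.00 over all 14312 transcripts. These medians depend on Myl2. It was at 0 in both groups on days 0 and 1, and its ratio of 0 is the median of day 0. Its low ratios of days 2 and 3 rest on 8 and 6 reads in siKlf5 cells. The median was the value of Mylpf on day 1 and of Myl6b on days 2 and 3, so it shows no decline common to the members.

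**Figure D3:**
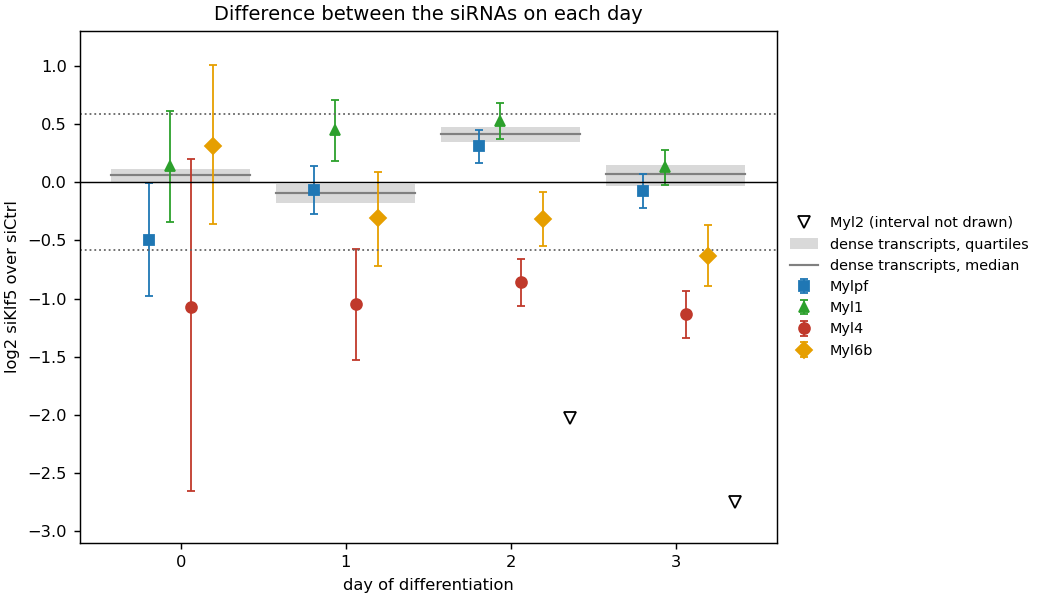
Log2 siKlf5 over siCtrl (y axis) on each day (x axis) for 4 members with 95% counting intervals, and for Myl2 on days 2 and 3 without its interval. Grey bands give the median and quartiles of the 61 densely covered transcripts, and dotted lines mark 1.5-fold. Myl4 lies below the lower dotted line on all 4 days, and Myl1 and Mylpf stay between the lines.

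The difference between the siRNAs was also tested for a slope over the days. The slope was -0.01 log2 units per day for Myl4 (SE 0.17, unadjusted p = 0.968, limma), so no widening was detected, with a 95% interval of -0.47 to 0.45. Whether the limit of 3 reads per position affected this slope was not tested. Myl6b had a slope of -0.28 (SE 0.11, unadjusted p = 0.0564, limma) and Myl2 of -0.96 (SE 0.25, unadjusted p = 0.0175, limma), and neither passed adjustment (adjusted p = 0.955 and 0.878, limma). No transcript was called at an adjusted p under 0.05 (0% of 14312), and 738 had an unadjusted p under that value, with no other tool run. Levels of siKlf5 cells were also placed on the time axis of the siCtrl cells, by straight lines between days on the log2 scale. The day 3 level of Myl4 in siKlf5 cells was reached at day 1.56 and that of Myl6b at day 1.35. The day 3 level of Myl1 in siKlf5 cells lay above all siCtrl values, but the interval of its day 3 log2 ratio included 0 (-0.02 to 0.28). The other members were not placed, since their siCtrl values did not rise on every day.

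The makeup of the essential light chain pool changed with both time and siRNA. In siCtrl cells Myl6, the nonmuscle chain, made up 84.9% of the summed FPKM of the essential chains on day 0 and 29.0% on day 3, while Myl1 went from 9.49% to 31.4% and Myl4 from 1.97% to 28.2%. In siKlf5 cells Myl6 went from 83.5% to 34.3%, Myl1 from 10.8% to 41.4% and Myl4 from 0.969% to 15.5%. Myl4 had 11.1% and 26.7% of the pool on days 1 and 2 in siCtrl cells, against 5.20% and 13.9% in siKlf5 cells. Myl6b had 11.4% on day 3 in siCtrl and 8.89% in siKlf5 cells. The 4 muscle essential genes summed to 455.8, 2368, 4210 and 6021 FPKM on days 0 to 3 in siCtrl cells and to 480.2, 2392, 4028 and 4622 in siKlf5 cells. The sums of the deposited values were thus close on days 0 to 2, while their makeup differed on days 1 and 2. On day 0 the counting intervals of the ratios between these genes overlapped. The closeness on day 2 depends on the scaling between libraries. With the scaling on dense transcripts the day 2 log2 ratios of Myl1, Myl4 and Myl6b were 0.08, -1.30 and -0.76. That scaling was added after seeing the data and put the day 2 median of all transcripts at -0.47. Myl1, Myl4 and Myl6b averaged 3.24, 1.96 and 1.12 reads per base, below the density of the transcripts it used. Mylpf made up 43.2% of the regulatory pool on day 1 and 54.0% on day 3 in siCtrl cells, and 41.0% and 50.7% in siKlf5 cells, the remainder being almost entirely the nonmuscle chains Myl12a, Myl12b and Myl9.

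**Figure D4:**
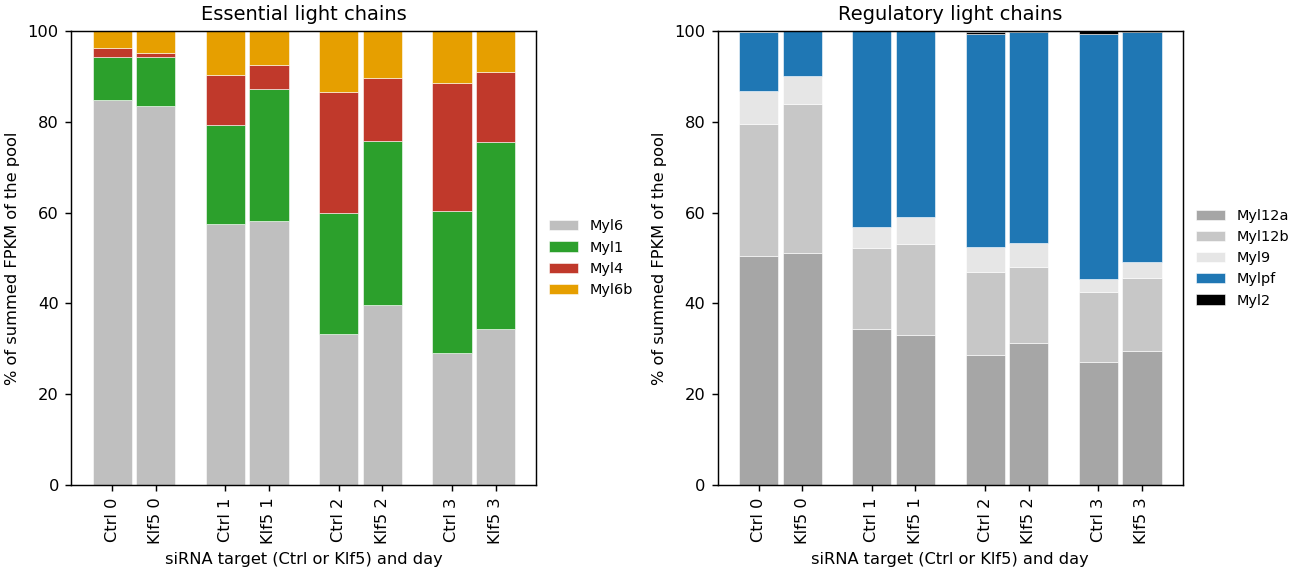
Share of each gene in the summed FPKM (y axis, %) of the essential (left) and regulatory (right) light chains in each of the 8 libraries, ordered by day and siRNA. The red part, Myl4, reaches 28.2% in siCtrl and 15.5% in siKlf5 cells on day 3, while the blue part, Mylpf, reaches 54.0% and 50.7%.

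Ratios within a library do not depend on the scaling between libraries. They can still depend on the limit of 3 reads per position and on which transcript of a gene was counted, as for Myl1. The part of either was not tested. On day 2 in siCtrl cells Myl4 had 5.66 and Myl1 5.64 reads per base. The ratio of Myl4 to Myl1 in siCtrl cells was 0.207, 0.505, 1.00 and 0.898 for days 0 to 3. In siKlf5 cells it was 0.0894, 0.179, 0.384 and 0.374. The 95% counting intervals of the siRNAs did not overlap on days 1 to 3 (0.809 to 0.996 against 0.324 to 0.429 on day 3) and overlapped on day 0. The ratio of Myl6b to Myl1 was 0.382, 0.436, 0.503 and 0.364 in siCtrl cells and 0.432, 0.258, 0.281 and 0.215 in siKlf5 cells, without overlap of the intervals on days 1 to 3. The ratio of Mylpf to Myl1 was 1.34, 2.02, 1.37 and 1.23 in siCtrl cells and 0.865, 1.42, 1.18 and 1.07 in siKlf5 cells, with intervals apart on day 1 alone. The order of levels per length in siCtrl cells on day 3 was Mylpf, Myl1, Myl4, Myl6b and Myl2. Myl4 and Myl1 could not be told apart on day 2 in siCtrl cells (interval of the ratio 0.907 to 1.11), nor Mylpf and Myl1 on day 3 in siKlf5 cells (0.960 to 1.19).

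**Figure D5:**
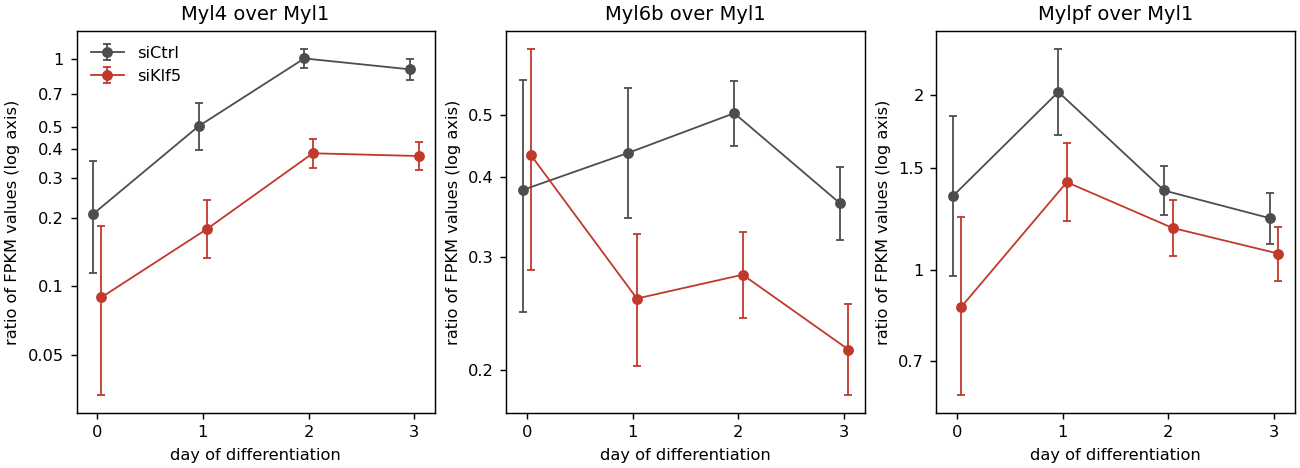
Ratios of FPKM values of 2 light chains within a library (y axis, log scale) by day (x axis) in siCtrl (grey) and siKlf5 (red) cells, with 95% counting intervals. Myl4 over Myl1 and Myl6b over Myl1 are lower in siKlf5 cells on days 1 to 3 with intervals apart, and on day 0 all intervals overlap.

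Other light chains were compared with the members. Of the 7 genes listed, 6 were in the table and 4 were expressed: Myl6, Myl12a, Myl12b and Myl9. None of the 4 was past 1.5-fold on any day, and none was called between days 0 and 3 by limma. Myl7, the atrial regulatory chain that pairs with Myl4 in the atrium, was at 3.50 in siCtrl cells on day 0, at 2.58 in siKlf5 cells on day 1 and at 0 in the other 6 libraries. Of the sarcomeric heavy chain list, which also holds the nonmuscle gene Myh14, 10 of 11 were expressed. All 10 were called higher on day 3 than on day 0 by limma, as were 13% of all transcripts. Between the siRNAs, 1 of the 10 was called by limma: Myh4, the fast type IIb heavy chain, was higher by 1.46 on the log2 scale (SE 0.14, adjusted p = 0.0122, limma), on 4 of 4 days. Like that of Myl4, this call was lost with any day left out and without the day block, the trend or the filter, where 0 transcripts were called higher. Myh7, the slow and ventricular heavy chain, had log2 ratios of -1.42, -1.99, -2.76 and -2.48 and did not pass (adjusted p = 0.0682, limma). Past 1.5-fold, 4, 3, 2 and 2 of the 10 were lower and 3, 3, 1 and 1 higher for days 0 to 3. Over all transcripts, 11.1%, 11%, 13% and 12.5% were lower and 9.22%, 16.4%, 7.69% and 10.7% higher. These shares apply to the lists that follow as well. Of 12 myogenic regulators measured, a list that holds Klf5 itself, 2, 2, 2 and 3 were lower and 0, 0, 1 and 0 higher. Of 12 genes of myosin folding and assembly, 2, 2, 1 and 2 were lower and 1, 3, 1 and 1 higher, and of the 2 nonmuscle heavy chains measured none was past the cutoff. Of the 10 skeletal markers, 3, 0, 0 and 1 were lower and none was higher. Of the 5 cardiac markers measured, 3, 2, 1 and 2 were lower and 0, 1, 1 and 0 higher.

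Of the 11 genes of light chain kinases and phosphatase, all were expressed, and none was called between the siRNAs. Between days 0 and 3 limma called 4 of the 11 higher and 3 lower. Of all 14312 transcripts, 1865 (13%) were called higher and 2579 lower. Their median log2 siKlf5 over siCtrl was between -0.13 and 0.04 on the 4 days. Mylk4, a light chain kinase of muscle, was at 73.3 in siCtrl and 119.9 in siKlf5 cells on day 3, a log2 ratio of 0.71. Mylk3, the cardiac light chain kinase, had a low mean of 1.32 and was at 0 in both groups on days 0 and 1. On day 2 it was at 2.17 in siCtrl and 1.98 in siKlf5 cells, and on day 3 at 6.37 and 0. Its difference over the days was -0.74 (SE 0.71, adjusted p = 0.762, limma), and its value of 0 bears on detection at this depth only. Ppp1r12b, a targeting subunit of myosin phosphatase, had log2 ratios of -1.33 on day 0 and 0.96 on day 1, in opposite directions. Camk2a, the alpha subunit of CaM kinase II, had log2 ratios of -1.98, -0.77, -1.39 and -1.41, past 1.5-fold lower on all 4 days, with a difference over the days of -1.32 (SE 0.19, adjusted p = 0.0682, limma). Mylk2, the light chain kinase of skeletal muscle, had log2 ratios of -0.14, -0.30, 0.31 and 0.01.

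The transcripts with the profile most like each member were found among 11590 with a mean of at least 10, by the root mean square difference of centred log2 values over the 8 libraries. For Myl1 these were Tmem38a (difference 0.17, Pearson r 0.993), Murc (0.21, r 0.985) and Trdn (0.23, r 0.990). For Mylpf they were Col6a2 (0.20, r 0.989), Rbm24 (0.21, r 0.987) and Tnnt2 (0.24, r 0.996), and for Myl6b they were Cacnb1 (0.21, r 0.982), Mturn (0.22, r 0.983) and Aamdc (0.23, r 0.982). For Myl4 they included Frmd4b (0.26, r 0.993) and Reep1 (0.30, r 0.993). Reep1 was lower in siKlf5 cells by log2 ratios of -1.48, -0.90, -1.25 and -1.17. Tmem38a and Trdn encode proteins of the sarcoplasmic reticulum, and Tnnt2 encodes cardiac troponin T. Among the members themselves, Myl1 and Mylpf had the smallest difference (0.33, r 0.970) of the 10 pairs, whereas by r Myl4 and Myl6b were nearest (r 0.974, difference 1.11), and Myl4 stood at 1.11 from Myl1 (r 0.925). All such r are over the same 8 libraries, in which time dominates, and are given as a description. In bulk RNA, fewer fused cells and less RNA per cell cannot be told apart.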

How the data were processed

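Poly(A) RNA of the 8 libraries was sequenced from both ends. Per the labels and the file headers, the authors aligned reads to mm9 with STAR and counted reads of either strand on RefSeq transcripts with HOMER, keeping 3 per position at most and 1 transcript per gene. Versions for these RNA-seq steps were not given in the sources used here. The FPKM values the authors deposited were scaled to a matrix total of 10000000 and exceed FPKM in the usual sense. 8 further columns on a log2 scale and the 6 ChIP-seq samples were not analysed here.

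Values multiplied by transcript length gave whole reads at low counts (all within 0.1 of a whole number), from which depth was recovered. Transcripts with 6 reads far outnumbered those with 5, so 95% exact (Clopper-Pearson) intervals were computed on reads divided by 6. Ratios of FPKM values used a pseudocount of 0.1 and were called past 1.5-fold between siRNAs (2-fold between days) without a test. limma 3.58.1 in R 4.3.3 (empirical Bayes with trend) was fitted to log2(FPKM + 1) of the 14312 transcripts whose mean reached 1, with day and siRNA as factors and Benjamini-Hochberg adjustment over all of them, called under 0.05. The days are not replicates, and no source says that libraries of a day came from separate cultures, so p-values do not measure error between replicates. Between the siRNAs they set a difference against its unevenness over the days. Between days they set a change against the unlike courses of the 2 siRNAs. The spread was also partly borrowed from transcripts of similar level, with 3 residual degrees of freedom and 8.43 after moderation. Slopes were fitted to the 4 daily differences. On simulated data the fit missed most decreases of known size between the siRNAs. The changed transcripts were drawn from all above a low read level, so the share missed at the level of the abundant members was not found. A missed threshold does not show that a gene did not differ. Start windows were read from the mm9 genome and coding sequences from GENCODE vM1. Python 3.11.15, pandas 2.3.3, scipy 1.17.1 and Biopython 1.88 were used otherwise. The named genes were the members, Klf5, genes of the lists of other light chains and light chain kinases that passed a cutoff, and the 3 nearest profiles of each member with a mean of at least 10, of which 1 is not reported here. The members, lists and rules were chosen with earlier results of these data known. Myh4, Myh7, Mylk2, Myl7 and the markers given by name were named beyond that rule, after their values were seen. Alternatives covered pseudocounts, filters, scalings, cutoffs, the trend, the day block and each day left out.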

Additional observations from a re-analysis of the deposited data

How the results depend on the processing

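The direction and size of the Myl4 difference held under all 11 alternatives of the limma fit, from -0.985 to -1.08, but its call did not. Myl4 was at -1.02 and no longer called without the trend, without the filter on low values and without the day block, and at -0.985 to -1.08 with 1 day left out. No transcript was called higher or lower between the siRNAs under these settings (0 with each day left out, limma), although 1211 had an unadjusted p under 0.05 without the trend, 1477 without the filter, 362 without the day block and 1018 to 1205 with a day left out, no other tool was run, and the cause was not tested for the trend and the filter. Leaving out a day removes samples, and leaving out the day block puts the change over time into the spread. With a mean of at least 5, 2 transcripts were called higher. Between days 0 and 3, 907 transcripts were called higher and 1236 lower without the filter, against 1865 and 2579, and 1535 lower without the trend. The split of these calls depended on scaling, with 2229 higher and 1903 lower after median-ratio scaling and 2214 and 1956 after upper-quartile scaling, under which all 5 members stayed higher. All members kept their calls over time there, except Myl2 without the filter (adjusted p = 0.0988, limma). Day by day, 1 member in place of 2 was past a 2-fold cutoff on day 2 (Myl4 at -0.86 and, on day 3, Myl6b at -0.63 did not pass it). The background counts moved most without the filter, to between 2531 and 2978 lower, with a mean of at least 5, to between 1001 and 1138 lower, with the 2-fold cutoff, to between 924 and 1069 lower, and with the scaling on dense transcripts, added after seeing the data, to as many as 5344 lower on day 2, where the median of all transcripts was then -0.47. In pools of the muscle genes only, Myl4 made up 39.7% in siCtrl and 23.5% in siKlf5 cells on day 3, Myl1 44.2% and 63.0%, and Mylpf 98.9% and 99.8% of the regulatory pool. The labels give no replicate numbers, and the day was the block that paired the siRNAs. The Mylpf difference over the days turned from -0.08 to 0.06 without day 0. Depth limits Myl2 and Myl3 most, and Myl4 on day 0.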
